A study of Mus musculus with 10 samples.

Results

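The S100 genes encode small calcium-binding proteins, and the set described here held S100a1, S100a4, S100a6, S100a8, S100a9, S100a10, S100a11 and S100a13. The members were listed by gene symbol, with earlier results of these data known. They made up 8 of the 55421 genes in the count table and 8 of its 17 S100 genes, and the 9 left out had at most 96 counts in a library. Most S100 proteins carry a pair of calcium-binding EF hands and act as dimers inside the cell, where calcium binding exposes a surface for partner proteins. S100A8 and S100A9 form calprotectin, an abundant cytosolic complex of neutrophils and monocytes that sequesters metal ions and, when released, acts as an alarmin through TLR4 and RAGE. In tumor-bearing animals this pair is known as a product of expanded immature myeloid cells, whereas S100A4, S100A6, S100A10 and S100A11 are found in many cell types and bind annexins, myosin and other partners.

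RNA sequencing was performed on 10 libraries from mice bearing MC17-51 fibrosarcoma, a mouse tumor cell line grown under the skin, at day 15 after implantation into animals 8 to 12 weeks old. Shp2f/f mice carry floxed alleles of Ptpn11, the gene of the phosphatase SHP-2, and served as controls, and Shp2f/fLysMcre mice carry the same floxed alleles plus Cre recombinase under the lysozyme M promoter, which is active in monocytes, macrophages and granulocytes. The 4 libraries of myeloid-derived suppressor cells (MDSC, 2 per genotype) were made from spleen cells isolated with magnetic beads, in the study's methods as GR1hi Ly6G+ Ly6C- cells. Tumor-associated macrophages (TAM) were sorted from the tumor as CD45+CD11b+F4/80+Ly6G- cells, with 3 libraries per genotype. Both populations came from the same mice, but the labels do not say which samples share a mouse or whether mice were pooled, so each p-value measures the spread between these libraries, which may in part be technical.

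Total counts were 28844660 to 38222998 per library, and no replicate pair agreed within sampling noise (chi-square per degree of freedom 4.63 to 64.5). As a check of the labels, Ptpn11 was lower in Shp2f/fLysMcre TAM by a log2 fold change of -1.24 (edgeR, adjusted p = 2.96e-09), and its change of -0.29 in MDSC did not pass (edgeR, adjusted p = 0.361). Lyz2, the locus that carries Cre, had log2 fold changes of -7.68 in MDSC and -8.33 in TAM. The genotypes thus differ in Cre and in Lyz2 transcript besides the floxed Ptpn11, and the parts of these in any genotype difference cannot be told apart. The MDSC libraries held monocyte transcripts beside granulocyte transcripts, with Ccr2 at 1320 to 2033 CPM of total counts and Ly6g, the antigen of the gate, at 9.20 to 34.1 CPM. MDSC Shp2f/fLysMcre replicate 2 stood apart, with 562 CPM over 7 fibroblast or fibrosarcoma markers against 6.97 to 25.4 CPM in the other MDSC libraries, and 46.6 CPM over 6 epithelial markers against 1.41 to 2.28 CPM. The Shp2f/f libraries also differed from the Shp2f/fLysMcre libraries in sex-linked transcript. Xist was at 0.0298 to 0.0301 CPM in MDSC Shp2f/f and at 130 to 136 CPM in MDSC Shp2f/fLysMcre. In the corresponding TAM it was at 4.84 to 18.5 CPM and 192 to 350 CPM. The Y-linked Ddx3y was at 52.2 to 56.7 and 24.4 to 28.6 CPM in MDSC, and at 82.1 to 87.3 and 35.4 to 42.2 CPM in TAM. Every Shp2f/fLysMcre library and every TAM Shp2f/f library thus held both transcripts and was not of female cells alone. The MDSC Shp2f/f libraries held Ddx3y with hardly any Xist, so Xist also differed between the 2 cell types of Shp2f/f. Sex composition and genotype cannot be told apart.

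All 8 genes lie on mouse chromosome 3 (GRCm38). S100a1 (ENSMUSG00000044080, 90511034 to 90514392, minus strand) and S100a13 (ENSMUSG00000042312, 90514435 to 90524581, plus strand) start head to head with 42 bases between them. S100a4 (ENSMUSG00000001020, 90603771 to 90606045, plus strand) and S100a6 (ENSMUSG00000001025, 90612882 to 90624181, plus strand) are separated by 6836 bases. S100a8 (ENSMUSG00000056054, 90668978 to 90670035, plus strand) and S100a9 (ENSMUSG00000056071, 90692632 to 90695721, minus strand) are 22596 bases apart. S100a11 (ENSMUSG00000027907, 93520488 to 93526287, plus strand) and S100a10 (ENSMUSG00000041959, 93555080 to 93564643, plus strand) form a second group, 2824766 bases beyond S100a9. S100a4 shares 302 of its 584 exonic bases with the predicted gene Gm42674 on the same strand. That gene had at most 1 count in a library, and how reads on both genes were assigned is not stated, so the level of S100a4 between genes is less certain than its change between groups.

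RefSeq start-site windows of GRCm38.p6 were found for 7 of the 8 members, S100a10 being the exception. The bases just upstream of the start are shown for S100a8 and S100a9, which had the largest differences of the 8 members between the cell types and between the genotypes in MDSC, and for S100a4, which had the largest between the genotypes in TAM. Capitals mark matches to TATAAA (the TATA box), GAGGAAG (PU.1, a myeloid transcription factor) and TTGCNNAA (C/EBP), searched on both strands, and each sequence reads 5′ to 3′ on the strand of its gene.
S100a8, chr3:90668821-90669070, plus strand: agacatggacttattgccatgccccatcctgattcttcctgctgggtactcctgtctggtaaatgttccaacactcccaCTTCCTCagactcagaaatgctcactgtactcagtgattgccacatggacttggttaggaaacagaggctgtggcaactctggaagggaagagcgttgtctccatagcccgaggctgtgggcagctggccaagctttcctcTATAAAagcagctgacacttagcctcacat
S100a9, chr3:90695722-90695971, minus strand: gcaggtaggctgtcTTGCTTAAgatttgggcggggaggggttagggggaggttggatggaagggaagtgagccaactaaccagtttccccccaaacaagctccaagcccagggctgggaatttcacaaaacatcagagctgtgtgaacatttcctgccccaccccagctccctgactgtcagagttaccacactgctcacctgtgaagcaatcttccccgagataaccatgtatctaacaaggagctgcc
S100a4, chr3:90603650-90603769, plus strand: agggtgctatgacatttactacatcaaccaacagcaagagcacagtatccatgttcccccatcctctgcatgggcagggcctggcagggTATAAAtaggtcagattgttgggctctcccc
The TATAAA match began 30 bases before the start site of S100a8 and 31 bases before that of S100a4, and the match of S100a9 began at its first transcribed base. These were 3 of the 7 members in the table, while 13.6% of 32851 promoter windows of 300 bases held the motif. GAGGAAG was found on the minus strand in 2 members, S100a8 (171 bases upstream) and S100a4 (18 bases downstream), with 13.6% of all windows holding it. TTGCNNAA was found in S100a9 alone, 236 bases upstream, with 10.8% of all windows. TTCNNNGAA (STAT) was found in 0 members and 8.3% of all windows, and TGANTCA (AP-1) in S100a11 alone, 136 and 38 bases upstream, with 7.81% of all windows. These are matches of letters and not measured binding.

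S100a8 and S100a9 had the largest differences of the 8 members between the cell types. Levels are given as CPM, the count relative to library size after TMM scaling. The 2 MDSC Shp2f/f libraries held S100a8 at 3261 and 3401 CPM, and the 3 TAM Shp2f/f libraries held it at 53.3, 59.8 and 52.0 CPM. S100a9 was at 3218 and 3205 CPM in MDSC Shp2f/f and at 74.1, 76.5 and 72.1 CPM in TAM Shp2f/f. Every MDSC library was far above every TAM library for both genes. TAM were thus 60.5-fold lower than MDSC for S100a8 (log2 difference -5.92, SE 0.112, edgeR, adjusted p = 1.53e-10) and 43.3-fold lower for S100a9 (-5.44, SE 0.0827, edgeR, adjusted p = 6.80e-11) in Shp2f/f mice. In Shp2f/fLysMcre mice the differences were 104-fold (-6.70, SE 0.115, edgeR, adjusted p = 7.46e-11) and 90.2-fold (-6.50, SE 0.0863, edgeR, adjusted p = 4.25e-11). In such bulk libraries, fewer cells of a type and less RNA per cell cannot be told apart. MDSC came from spleen by magnetic beads and TAM from tumor by sorting. Cell type, tissue and isolation thus cannot be told apart in any comparison of TAM with MDSC. The TAM gate excludes Ly6G+ cells, and Ly6g was at 0.288 CPM of total counts or less in every TAM library. In MDSC it was at 9.20 to 34.1 CPM. Of 10 neutrophil genes, 9 were called lower and 1 higher in TAM than in MDSC in Shp2f/f (edgeR, adjusted p under 0.05), where 34.6% and 35.1% of all genes were. Among those lower, the highest in TAM were Csf3r at 113 to 185 CPM and Mmp8 at 37.6 to 71.2 CPM. The others of those lower were at 22.3 CPM or less in every TAM library, with Camp at 0.697 to 1.56 CPM. Mmp9, the gene called higher, was at 1835 to 4273 CPM in TAM. The share of neutrophils in the TAM libraries was not tested.

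**Figure D1:**
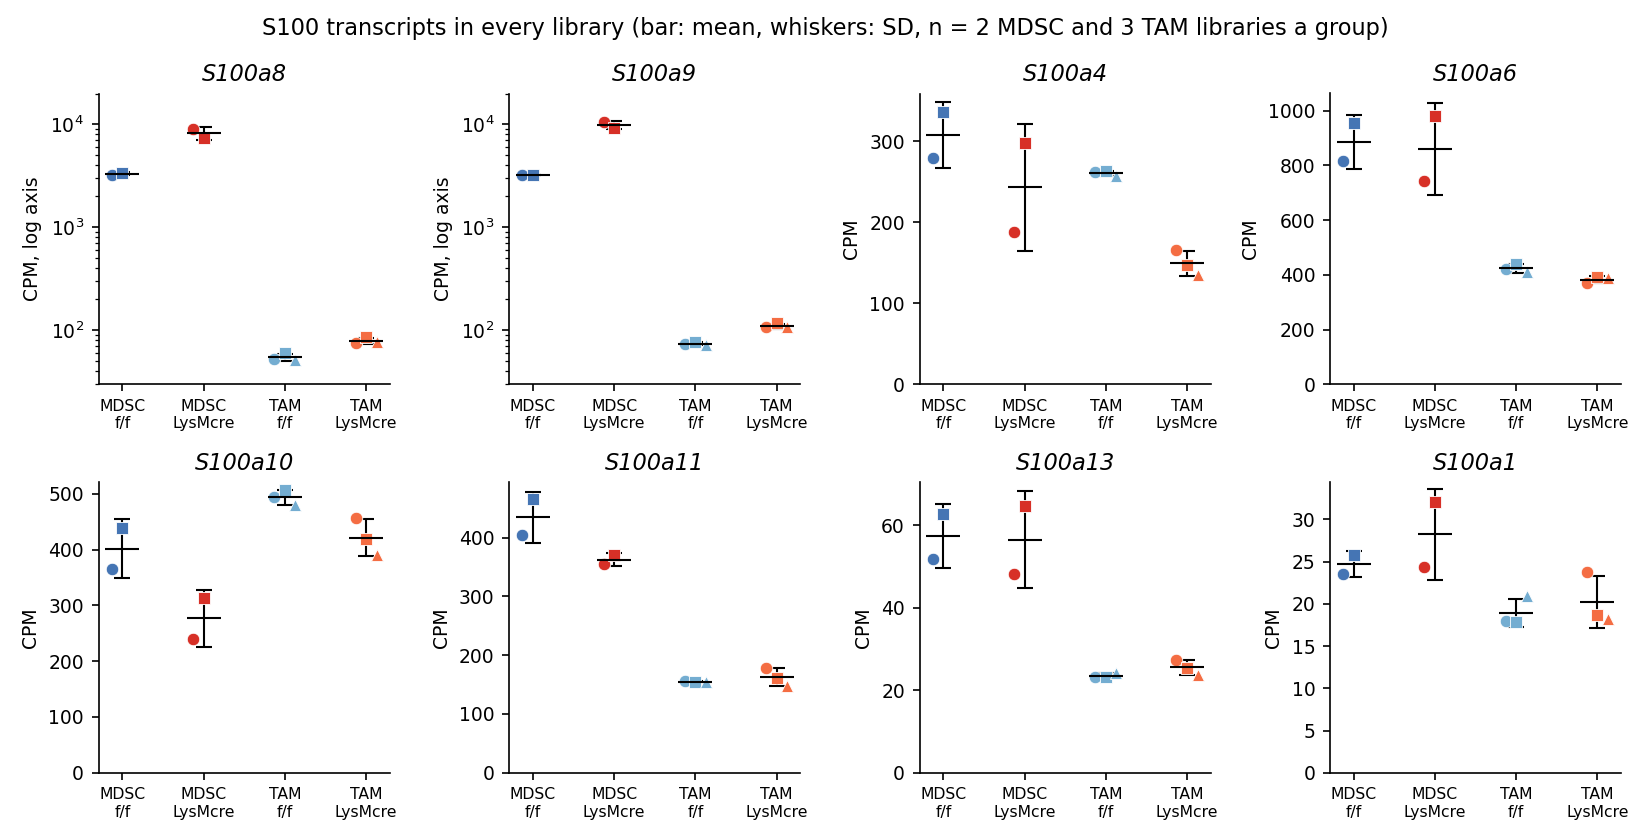
Expression of the 8 S100 genes in all 10 libraries, in CPM. The horizontal line is the group mean and the whiskers are the SD (n = 2 for MDSC and n = 3 for TAM), f/f stands for Shp2f/f, LysMcre for Shp2f/fLysMcre, and the axes of S100a8 and S100a9 are logarithmic. MDSC lie above TAM for S100a8 and S100a9 by more than 10-fold in every library, and the points of S100a4 in TAM split by genotype.

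Among the other 6 members, 4 were lower in TAM than in MDSC in Shp2f/f mice, S100a10 was higher and S100a4 did not pass. Over all 8 members, 6 were lower and 1 higher in Shp2f/f, where 34.6% of all tested genes were called lower and 35.1% higher (edgeR, adjusted p under 0.05), and the median log2 difference was -1.17 for the members and 0.00 for all genes. In Shp2f/fLysMcre, 7 were lower and 1 higher, where 36.6% and 32.3% of all genes were, with a median of -1.15 against -0.07. S100a11, an annexin A1 partner, was at 404 and 465 CPM in MDSC Shp2f/f and at 154 to 155 CPM in TAM Shp2f/f, a log2 difference of -1.49 (SE 0.0843, edgeR, adjusted p = 1.60e-07). S100a6, which binds CACYBP, was at 816 and 956 CPM in MDSC and at 410 to 441 CPM in TAM, a difference of -1.06 (SE 0.111, edgeR, adjusted p = 1.52e-05). S100a13, a partner of FGF1 in its release without a signal peptide, was at 51.9 and 62.8 CPM in MDSC and at 23.2 to 24.3 CPM in TAM, a difference of -1.28 (SE 0.125, edgeR, adjusted p = 9.14e-06). For these 3 genes the ranges of the cell types did not overlap in either genotype.

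S100a10, which forms a tetramer with annexin A2 at the plasma membrane, ran against the others. It was at 365 and 439 CPM in MDSC Shp2f/f and at 494, 506 and 479 CPM in TAM Shp2f/f, a log2 difference of 0.30 (SE 0.119, edgeR, adjusted p = 0.0484). In Shp2f/fLysMcre the difference was 0.61 (SE 0.121, edgeR, adjusted p = 0.00132). S100a1, known mainly from muscle, had called differences of -0.38 in Shp2f/f (SE 0.145, edgeR, adjusted p = 0.0375) and -0.48 in Shp2f/fLysMcre (SE 0.144, edgeR, adjusted p = 0.0134), at 17.9 to 32.0 CPM over all libraries. The Shp2f/f call of S100a10 was lost without MDSC Shp2f/f replicate 1 or without any of the 6 TAM libraries (edgeR, adjusted p of 0.0519 to 0.366). That of S100a1 was lost without either MDSC Shp2f/f library or TAM Shp2f/f replicate 1 or 2 (edgeR, adjusted p of 0.0784 to 0.181), and its Shp2f/fLysMcre call without MDSC Shp2f/fLysMcre replicate 2 (edgeR, adjusted p = 0.111). S100a4 differed by -0.24 in Shp2f/f (SE 0.168, edgeR, adjusted p = 0.222) and by -0.70 in Shp2f/fLysMcre (SE 0.168, edgeR, adjusted p = 0.00395). Its Shp2f/f difference passed when either MDSC Shp2f/fLysMcre library, which shares the estimate of spread, was left out (edgeR, adjusted p = 0.0327 and 0.0317).

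The order of the genes was set by level per length, in CPM per kilobase of exon. The length was that of all annotated exons of a gene together, and the order depends on it. By CPM without length, S100a10 (493) and S100a6 (424) were ahead of S100a4 (260) in TAM Shp2f/f. In MDSC Shp2f/f, S100a6 (886) was then ahead of S100a11 (435). In MDSC Shp2f/f the order was S100a9 (6152 ± 16.4), S100a8 (4800 ± 142), S100a11 (850 ± 85.1), S100a6 (648 ± 72.5), S100a4 (527 ± 69.2), S100a10 (331 ± 43.3), S100a13 (80.3 ± 10.8) and S100a1 (35.6 ± 2.26), each as mean ± SD with n = 2. The ranges of neighbors in this order did not overlap. MDSC Shp2f/fLysMcre kept this order, with S100a9 at 19082 ± 1795 and S100a8 at 11880 ± 1616 CPM per kilobase, and there the ranges of S100a11 and S100a6 overlapped. In TAM Shp2f/f the ubiquitous members led, with S100a4 at 446 ± 5.69, S100a10 at 407 ± 11.3, S100a6 at 310 ± 11.6 and S100a11 at 303 ± 1.37 CPM per kilobase (SD, n = 3). S100a9 followed at 142 ± 4.22, S100a8 at 79.3 ± 6.04, S100a13 at 32.9 ± 0.839 and S100a1 at 27.3 ± 2.47, and S100a6 and S100a11 were the only neighbors whose ranges overlapped. In TAM Shp2f/fLysMcre S100a4 was in the fourth place, at 256 ± 27.2, behind S100a10 (348 ± 27.3), S100a11 (318 ± 29.4) and S100a6 (280 ± 8.91), and ahead of S100a9 at 211 ± 11.5 and S100a8 at 114 ± 7.75 CPM per kilobase. The ranges of S100a10 and S100a11, of S100a6 and S100a4, and of S100a13 (35.7 ± 2.56) and S100a1 (29.1 ± 4.45) overlapped there.

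The genotypes were then compared within MDSC. The alarmin pair rose in Shp2f/fLysMcre and the other 6 members did not pass. Of the 8 members, 2 were called higher, where 3.76% of 14806 tested genes were (edgeR, adjusted p under 0.05). None was called lower, where 0.52% of genes were, against 1 member lower at an unadjusted p under 0.05 in edgeR and 1 by DESeq2, S100a10 in both. The median log2 fold change of the members was -0.04 and that of all genes -0.01.

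S100a9 was at 3218 and 3205 CPM in Shp2f/f and at 10624 and 9298 CPM in Shp2f/fLysMcre MDSC, a 3.09-fold rise (log2 fold change 1.63, SE 0.135, edgeR, adjusted p = 0.0179). S100a8 was at 3261 and 3401 CPM in Shp2f/f and at 9038 and 7451 CPM in Shp2f/fLysMcre, a 2.47-fold rise (1.30, SE 0.150, edgeR, adjusted p = 0.0192). Both Shp2f/fLysMcre libraries were above both Shp2f/f libraries for each gene. With S100a9 rising more than S100a8, the ratio of S100a8 to S100a9 counts was 1.01 and 1.06 in Shp2f/f and 0.851 and 0.801 in Shp2f/fLysMcre MDSC. Leaving out either Shp2f/f library left 1 gene called in the whole table, and S100a8 and S100a9 then had log2 fold changes of 1.27 to 1.33 and 1.62 to 1.63 (edgeR, adjusted p = 0.590 without replicate 1 and 0.673 without replicate 2). With no filter on low counts their adjusted p was 0.0919 and 0.0562 in edgeR.

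The pair took up a sizeable part of the MDSC libraries. S100a8 and S100a9 together made up 0.671% (95% Wilson interval 0.668% to 0.673%) and 0.681% (0.678% to 0.684%) of all counts in Shp2f/f MDSC, and 2.02% (2.02% to 2.03%) and 1.83% (1.82% to 1.83%) in Shp2f/fLysMcre MDSC. Such intervals cover counting error only. By count, S100a9 was the 11th and 10th most abundant gene in the Shp2f/f libraries and ranked 1 in both Shp2f/fLysMcre libraries, and S100a8 was the 10th and 9th and then ranked 2 and 3. In TAM the pair made up 0.0127% to 0.0137% of counts in Shp2f/f and 0.0167% to 0.0186% in Shp2f/fLysMcre, with interval bounds between 0.0123% and 0.0191%. The other 6 members made up 0.164% to 0.236% of the MDSC libraries and 0.104% to 0.141% of the TAM libraries.

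**Figure D2:**
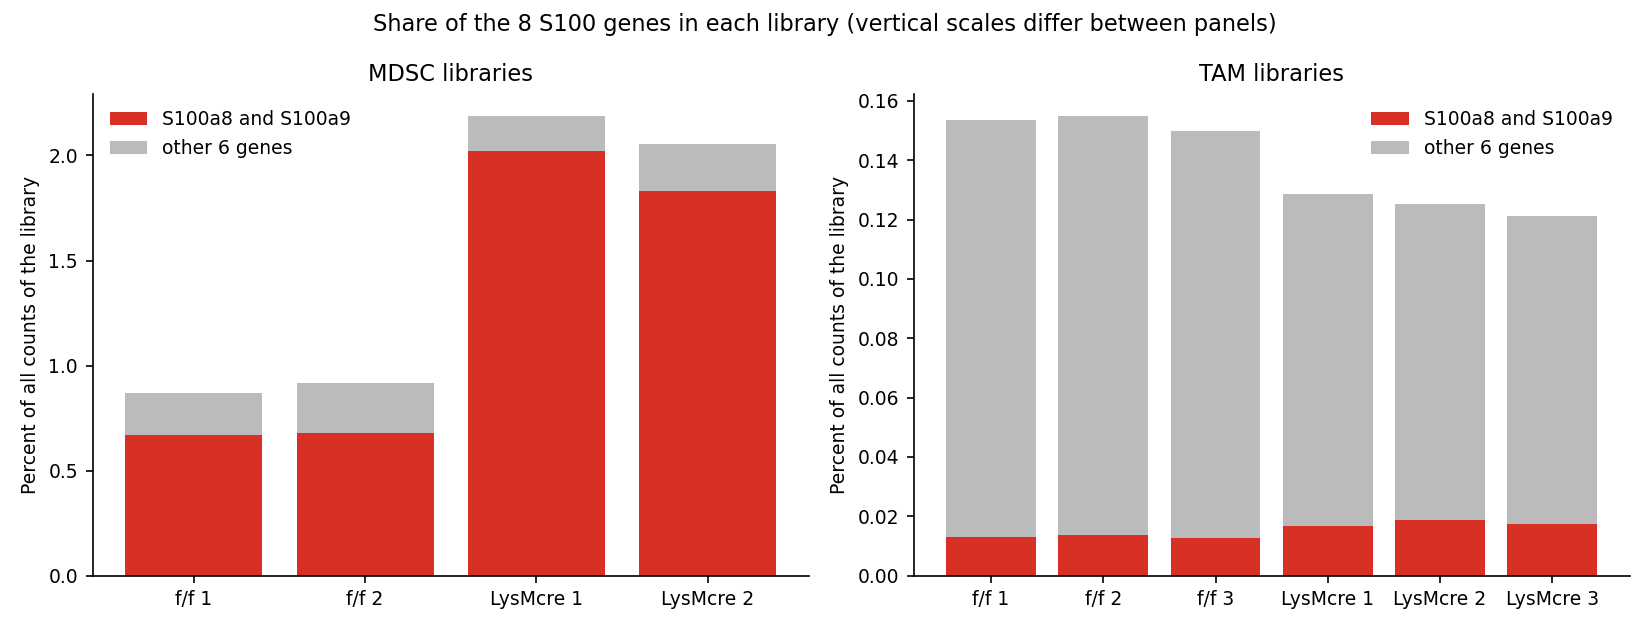
Percent of all counts of each library taken by S100a8 and S100a9 (red) and by the other 6 members (grey), for the 4 MDSC libraries (left) and the 6 TAM libraries (right). The red share is 0.671% and 0.681% in MDSC Shp2f/f and 2.02% and 1.83% in MDSC Shp2f/fLysMcre, and the vertical scales of the panels differ.

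Some transcripts of granulocytes and their precursors moved with the pair in MDSC. The summed level of 10 neutrophil genes was 4071 to 4496 CPM of total counts in Shp2f/f and 11652 to 14011 CPM in Shp2f/fLysMcre MDSC. Of the 10, 5 rose, among them the granule genes Camp, Ngp, Ltf and Lcn2 (log2 fold changes 2.38, 2.57, 2.49 and 1.19). Csf3r, Cxcr2, Mmp8, Mmp9 and Retnlg did not pass (log2 fold changes 0.10 to 0.99, edgeR, adjusted p of 0.157 to 0.852). The sum of 4 azurophil granule genes of neutrophil precursors (Elane, Mpo, Prtn3 and Ctsg) was 424 to 475 and 1046 to 1200 CPM, and 4 of 4 rose. The sum of 6 proliferation genes was 527 to 563 and 1160 to 1296 CPM, and 6 of 6 rose, while 5 monocyte genes summed to 7097 to 7100 and 5093 to 6129 CPM, with 0 of 5 called by edgeR. Over all tested genes in MDSC, 3.76% were called higher and 0.52% lower. The part of these lists in the rise of S100a8 and S100a9 was not tested.

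The other members in MDSC differed by less than the test could call, and for some the Shp2f/fLysMcre replicates lay far apart. S100a10 was at 365 and 439 CPM in Shp2f/f and at 241 and 312 CPM in Shp2f/fLysMcre, so the genotypes did not overlap, and its log2 fold change was -0.55 (SE 0.172, edgeR, adjusted p = 0.168). S100a11 was at 404 and 465 against 354 and 370 CPM, again without overlap (log2 fold change -0.27, SE 0.125, edgeR, adjusted p = 0.332). S100a4, a motility-linked protein that binds non-muscle myosin, was at 279 and 337 CPM in Shp2f/f and at 188 and 298 CPM in Shp2f/fLysMcre, a log2 fold change of -0.35 (SE 0.235, edgeR, adjusted p = 0.511). Replicate 2 was the higher library in both genotypes, and the part of fibroblast transcript in this was not tested. The fibroblast or fibrosarcoma sum was 25.4 CPM in Shp2f/f replicate 2 and 562 CPM in the library of Shp2f/fLysMcre replicate 2. Without that library, S100a4 and S100a10 were called lower, with log2 fold changes of -0.71 and -0.74 (edgeR, adjusted p = 8.14e-05 and 5.38e-05), and 4 of the 8 members were called. In that fit the remaining Shp2f/fLysMcre library is assumed to vary like the Shp2f/f libraries, and 2729 genes were called in all. S100a6 changed by -0.05 (SE 0.173), S100a13 by -0.03 (SE 0.176) and S100a1 by 0.19 (SE 0.158) on the log2 scale, with edgeR adjusted p of 0.619 to 0.957.

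**Figure D3:**
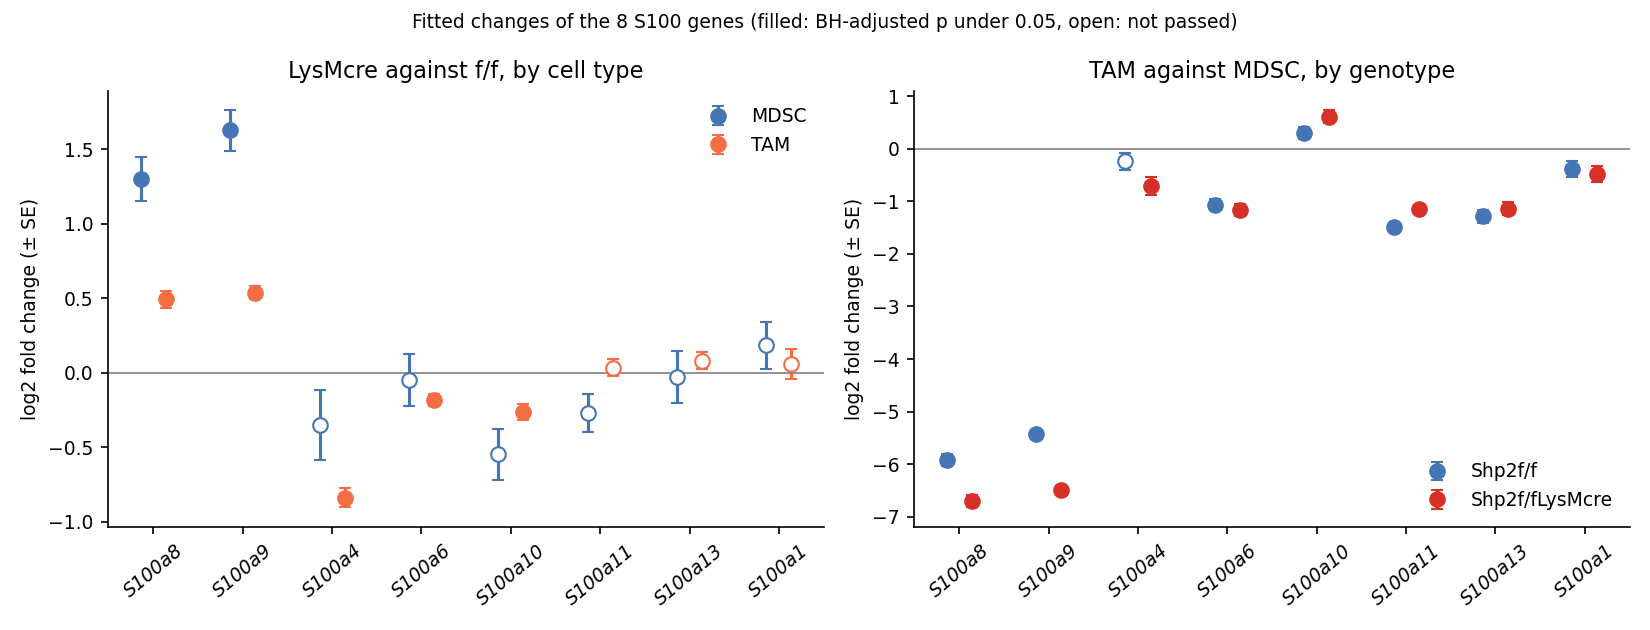
Log2 fold changes of the 8 members with their SE from edgeR, for Shp2f/fLysMcre against Shp2f/f in MDSC and TAM (left) and for TAM against MDSC in each genotype (right). Filled points passed an adjusted p of 0.05 and open points did not. S100a8 and S100a9 lie above 0 in both cell types on the left, at 1.30 and 1.63 in MDSC and 0.49 and 0.54 in TAM, and S100a4 lies lowest in TAM at -0.84.

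In TAM, S100a8 and S100a9 were also higher in Shp2f/fLysMcre, and S100a4, S100a6 and S100a10 were lower. Thus 2 of the 8 members were called higher and 3 lower, where 23.9% and 26.3% of 14446 tested genes were called (edgeR, adjusted p under 0.05). The members had a median log2 fold change of 0.05, against -0.01 over all genes. S100a4 was at 262, 263 and 257 CPM in Shp2f/f TAM and at 166, 147 and 135 CPM in Shp2f/fLysMcre TAM. It fell to 0.559 of its Shp2f/f level (log2 fold change -0.84, SE 0.0627, edgeR, adjusted p = 1.11e-06), and the genotypes did not overlap.

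The alarmin pair kept a low level in TAM while differing between the genotypes. S100a9 was at 74.1, 76.5 and 72.1 CPM in Shp2f/f and at 107, 117 and 107 CPM in Shp2f/fLysMcre, a 1.45-fold rise (log2 fold change 0.54, SE 0.0429, edgeR, adjusted p = 1.83e-06). S100a8 was at 53.3, 59.8 and 52.0 CPM and at 75.9, 85.6 and 76.7 CPM, a 1.41-fold rise (0.49, SE 0.0589, edgeR, adjusted p = 3.83e-05). The lowest Shp2f/fLysMcre library was above the highest Shp2f/f library for both genes. The ratio of S100a8 to S100a9 counts was 0.719 to 0.782 in Shp2f/f and 0.710 to 0.730 in Shp2f/fLysMcre TAM. Among 9 tested neutrophil genes, Csf3r, Cxcr2 and Mmp8 rose (log2 fold changes 0.72, 1.03 and 0.95), Mmp9 fell by 1.06 and the granule genes Camp, Ngp, Ltf and Lcn2 did not pass. The sum of the 10 neutrophil genes was 4260 to 4467 CPM in Shp2f/f and 2131 to 2176 CPM in Shp2f/fLysMcre TAM, of which Mmp9 alone gave 95.3% to 95.7% and 86.1% to 86.6%. Without Mmp9, a step chosen after seeing the data, the sums were 192 to 202 and 288 to 297 CPM. Over all tested genes in TAM, 23.9% were called higher and 26.3% lower. The part of neutrophil transcript in the TAM values was not tested.

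**Figure D4:**
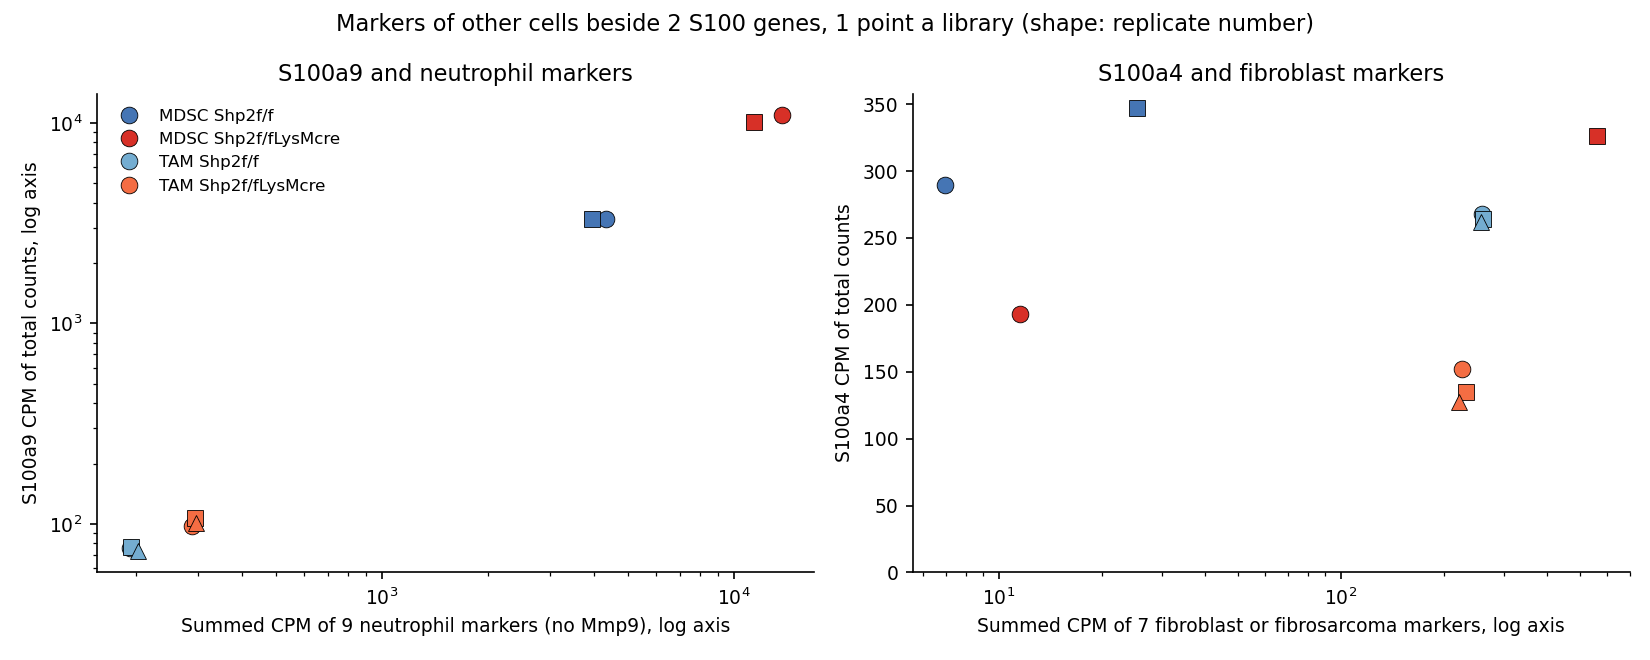
Each point is a library, in CPM of total counts, with color for the group and shape for the replicate number. Left, S100a9 against the sum of 9 neutrophil markers without Mmp9 on logarithmic axes; right, S100a4 against the sum of 7 fibroblast or fibrosarcoma markers, the latter on a logarithmic axis. MDSC Shp2f/fLysMcre lie at the upper right on the left panel, and replicate 2 of that group lies farthest right, at 562 CPM, on the right panel.

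The remaining TAM changes were smaller. S100a10 was at 494, 506 and 479 CPM in Shp2f/f and at 456, 419 and 390 CPM in Shp2f/fLysMcre, a log2 fold change of -0.26 (SE 0.0522, edgeR, adjusted p = 0.00150). S100a6 was at 421, 441 and 410 CPM and at 369, 392 and 387 CPM, a log2 fold change of -0.18 (SE 0.0407, edgeR, adjusted p = 0.00292). The genotypes did not overlap for either gene, but neither passed in a single fit of all 10 samples (edgeR, adjusted p = 0.144 and 0.316). S100a11 changed by 0.04 (SE 0.0570), S100a13 by 0.08 (SE 0.0578) and S100a1 by 0.06 (SE 0.101) on the log2 scale (edgeR, adjusted p = 0.638, 0.268 and 0.652), and these 3 signs turned under scaling by total counts. Other transcripts that moved with S100a4 in TAM were those of proliferation, with a sum of 6 genes of 703 to 709 CPM in Shp2f/f and 342 to 358 CPM in Shp2f/fLysMcre and 6 of 6 lower. The 9 macrophage genes rose from 9924 to 10216 CPM to 13993 to 14458 CPM, with 9 of 9 higher. S100a4 is also expressed by fibroblasts, and the fibroblast or fibrosarcoma list summed to 256 to 261 and 222 to 232 CPM, with 1 of 7 genes higher and 2 lower. The shares of all tested genes in TAM were 23.9% higher and 26.3% lower. The part of these lists in the fall of S100a4 was not tested.

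The remaining marker lists were counted in the same way. Over all tested genes, 3.76% were called higher and 0.52% lower in MDSC, and 23.9% and 26.3% in TAM. In MDSC, 4 of 5 erythroid genes rose, 1 of 4 B cell genes and 1 of 9 macrophage genes fell, and 0 of 4 eosinophil, 0 of 3 dendritic cell, 0 of 4 T cell, 0 of 5 fibroblast, 0 of 2 epithelial and 0 of 3 islet genes tested were called by edgeR. In TAM, 4 of 4 islet genes and 4 of 4 T cell genes fell, 2 of 3 erythroid genes and 1 of 3 B cell genes rose, 3 of 5 monocyte genes rose and 2 fell, and 2 of 3 dendritic cell, 1 of 2 eosinophil and 1 of 3 epithelial genes fell. The islet sum was 845 to 6682 CPM in TAM Shp2f/f and 5.72 to 73.6 CPM in TAM Shp2f/fLysMcre, and 1 azurophil gene was tested in TAM and did not pass.

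Whether the genotype acted differently in TAM than in MDSC was tested over all 10 samples, which are those of the comparisons above. This fit, also used for the cell type differences, took samples as independent and shared a single estimate of spread. In the separate fits the coefficient of variation between replicates was 0.189 in MDSC and 0.0595 in TAM. The SE and p-values of the shared fit may thus understate the spread of MDSC. The rises of S100a8 and S100a9 were smaller in TAM than in MDSC. Of the 8 members, 2 were called with a more negative effect in TAM and none with a more positive one (0 in edgeR, 1 at an unadjusted p under 0.05 and 1 by DESeq2, S100a11 in both), where 12.7% and 12.2% of 16581 genes were called (edgeR, adjusted p under 0.05). S100a9 differed by -1.06 on the log2 scale (SE 0.106, edgeR, adjusted p = 0.000103) and S100a8 by -0.78 (SE 0.140, edgeR, adjusted p = 0.00322). S100a11 had a difference of 0.33 (SE 0.121, edgeR, adjusted p = 0.0719) and S100a10 of 0.31 (SE 0.168, edgeR, adjusted p = 0.208). S100a11 passed without TAM Shp2f/fLysMcre replicate 3 (0.40, edgeR, adjusted p = 0.0396) and S100a10 without MDSC Shp2f/fLysMcre replicate 2 (0.51, edgeR, adjusted p = 0.0178). S100a4, called in TAM and not in MDSC, had a difference of -0.46 (SE 0.239, edgeR, adjusted p = 0.192), so its fall was not shown to be particular to TAM. It moved to -0.09 without MDSC Shp2f/fLysMcre replicate 2 and to -0.75 without replicate 1 of that group (edgeR, adjusted p = 0.726 and 0.00176). S100a6, S100a13 and S100a1 had differences of -0.11, 0.14 and -0.10 (edgeR, adjusted p of 0.624 to 0.782).

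The other 9 S100 genes of the table were hardly detected. S100z had 0 counts in all 10 libraries, and the highest count of a library was 1 for S100b and S100g, 6 for S100a2, 7 for S100a5, 9 for S100a14, 10 for S100a7a, 28 for S100a3 and 96 for S100a16. None passed the filter in MDSC and 1 did in TAM. S100a3 had 28, 20 and 18 counts in TAM Shp2f/f and 3, 10 and 4 in TAM Shp2f/fLysMcre, a log2 fold change of -1.75 (SE 0.427, edgeR, adjusted p = 0.00540), and it shares 144 exonic bases with Gm42674. In MDSC it had 0 and 1 counts in Shp2f/f and 8 and 6 in Shp2f/fLysMcre. The TAM and MDSC effects of S100a3 differed (log2 difference -5.09, SE 1.09, edgeR, adjusted p = 0.00787), but with 0 and 1 counts in a group the size of that difference is not well measured. S100a16 had 96 counts in MDSC Shp2f/fLysMcre replicate 2, the library with epithelial markers, against 1 or 2 in the other MDSC libraries, and 27 in TAM Shp2f/fLysMcre replicate 3, which held 111 CPM of epithelial markers. Its difference between the effects was -2.42 (SE 2.28, edgeR, adjusted p = 0.485).

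Receptors for extracellular S100 proteins were described as a list of 8 genes, comprising Ager (RAGE), Tlr4 with its partners Ly96 and Cd14, the scavenger receptor gene Cd36, and Bsg, Mcam and Alcam. In MDSC 0 of 8 were called in edgeR, where 3.76% of all genes were called higher and 0.52% lower, with 2 at an unadjusted p under 0.05 and 1, Mcam, by DESeq2. Without MDSC Shp2f/fLysMcre replicate 2, which left 1 library in its group, edgeR called Ly96, Cd36 and Mcam. Many more genes of the whole table were called in that fit too. In TAM 5 of 8 rose and 0 fell, with 0 also lower at an unadjusted p under 0.05 and by DESeq2, and the median log2 fold change was 0.33, against -0.01 over all genes. Of all genes tested in TAM, 23.9% were called higher and 26.3% lower. Cd36 rose from 8.87 ± 0.204 to 23.8 ± 1.41 CPM (SD, n = 3 each, log2 fold change 1.39, SE 0.0630, edgeR, adjusted p = 3.67e-08). Tlr4 rose from 49.7 ± 3.06 to 104.6 ± 10.2 CPM (1.04, SE 0.0697, edgeR, adjusted p = 5.23e-07), and Ly96 from 12.1 ± 0.933 to 16.3 ± 1.36 CPM (0.40, SE 0.0779, edgeR, adjusted p = 0.00139). The TAM effect was more positive than the MDSC effect for 4 of the 8, led by Tlr4 (1.28), Ly96 (0.96) and Cd36 (0.82), with edgeR adjusted p of 0.00117 to 0.00765. None was more negative in edgeR or DESeq2, and 1 was at an unadjusted p under 0.05, where 12.2% of all genes were called more positive and 12.7% more negative. Between the cell types in Shp2f/f mice, 4 were higher and 3 lower in TAM, where 35.1% and 34.6% of all genes were, with Ager at -3.38 (9.25 ± 0.224 CPM in MDSC and 0.884 ± 0.168 CPM in TAM), Cd14 at 2.17 and Mcam at -1.82 on the log2 scale. In Shp2f/fLysMcre 6 were higher and 2 lower, where 32.3% and 36.6% of all genes were, with Ager at -3.35, Mcam at -3.03 and Cd36 at 2.61.

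Intracellular partners were a list of 9 genes, the annexins Anxa1, Anxa2, Anxa6 and Anxa11, the scaffold Ahnak, the S100A6 partner Cacybp, the myosin heavy chain Myh9, the phosphatase Ppp5c and Fgf1. In MDSC 0 of 9 were called in edgeR, against the same 3.76% and 0.52% of all genes, with 1 at an unadjusted p under 0.05 and 1, Ahnak, by DESeq2. Without MDSC Shp2f/fLysMcre replicate 2, which left 1 library in its group, edgeR called Anxa1, Anxa11, Ahnak and Myh9. Many more genes of the whole table were called in that fit too. In TAM 1 of the 8 tested rose and 2 fell, where 23.9% and 26.3% of all genes did, and the median log2 fold change was -0.05 against -0.01 over all genes. Cacybp fell from 86.9 ± 7.59 to 59.7 ± 1.22 CPM (log2 fold change -0.58, SE 0.0561, edgeR, adjusted p = 7.94e-06), and Ppp5c from 81.0 ± 1.96 to 71.2 ± 2.88 CPM (-0.22, SE 0.0400, edgeR, adjusted p = 0.000850). Anxa6 rose from 146 ± 2.03 to 195 ± 5.92 CPM (0.38, SE 0.0381, edgeR, adjusted p = 1.02e-05). Anxa2, whose product binds S100A10, was at 1006 ± 13.7 and 991 ± 54.1 CPM in TAM and did not pass (log2 fold change -0.06, SE 0.0403, edgeR, adjusted p = 0.267). The TAM effect was more positive than the MDSC effect for Anxa6 (0.68) and Ahnak (0.51) and more negative for Cacybp (-0.41), with edgeR adjusted p of 0.000347 to 0.0190. Over all genes these shares were 12.2% and 12.7%. Without MDSC Shp2f/fLysMcre replicate 2, more genes of the list were called in both directions, in a fit with 1 library in that group. Between the cell types, 2 of 9 partners were higher and 2 lower in TAM in Shp2f/f, where 35.1% and 34.6% of all genes were, led by Anxa6 (-0.95), Anxa2 (-0.72) and Cacybp (0.49). In Shp2f/fLysMcre 2 were higher and 3 lower, against 32.3% and 36.6% of all genes, led by Ahnak (0.62), Anxa2 (-0.43) and Anxa1 (-0.36).

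Likeness of pattern was measured as the root mean square difference of centred log2 CPM over the 10 samples, among the 8850 genes that averaged 10 CPM or more. Since the samples fall into 2 cell types and 2 genotypes, this describes the 4 groups and is no test. S100a8 and S100a9 were each other's nearest member (0.202), as were S100a11 and S100a13 (0.127). The nearest member was S100a13 for S100a6 (0.135), S100a6 for S100a1 (0.379), S100a1 for S100a4 (0.402) and S100a4 for S100a10 (0.508). Among genes outside the set, Pglyrp1, a granule peptidoglycan recognition protein, was nearest to S100a8 (0.240), followed by Ermap (0.248) and the serpin gene Serpinb1a (0.285). S100a4 was nearest to Npm3 (0.152), Pop5 (0.153) and Aven (0.159), and S100a13 to Nfkbil1 (0.0706), Idnk (0.0707) and Higd2a (0.0723). At least 3 genes outside the set were therefore closer to S100a4 and to S100a13 than any other member was.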

How the data were processed

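Expression was measured by RNA-seq in 4 MDSC and 6 TAM samples, grouped and numbered by their titles. Per the labels and the study's methods, poly(A) libraries (TruSeq Stranded mRNA) were sequenced paired-end on a NextSeq 500, checked with FastQC 0.11.5, trimmed with cutadapt 2.5, aligned to GRCm38 with STAR 2.7.3a and assigned to Ensembl genes with featureCounts (Subread 1.6.2). The authors deposited these as raw counts per gene, which are whole numbers and not normalized, and 28844660 to 38222998 of them per library set the precision. Strand setting, handling of reads with several matches and pooling of mice are not given in the sources used here. A deposited table of normalized values was not used, and every count column of a sample was.

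Gene symbols, positions and exon lengths came from GENCODE M21, which matched 99.7% of identifiers. Counts were tested with edgeR 4.0.16 (quasi-likelihood F test, filterByExpr with a minimum count of 10, TMM scaling) in R 4.3.3, separately for genotype in MDSC and in TAM, and over all 10 samples for the cell type differences and the difference between genotype effects. P-values were adjusted by Benjamini-Hochberg over all tested genes, with calls at an adjusted p under 0.05. CPM of members are TMM-scaled over all 10 samples, while marker sums and shares use total counts. Promoter windows came from RefSeq (GRCm38.p6). The scripts were tested on simulated data. Alternatives were DESeq2 1.42.0, its size factors, total-count scaling, scaling without the 20 genes with the most counts, no filter, a filter of 1 CPM, a replicate block, a threshold of 0.01, a single fit of all 10 samples or limma 3.58.1 voom with weights per cell type, and leaving out each sample.

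Named were the 8 members, other S100 genes that passed the filter, Ptpn11 and Lyz2, up to the 3 largest called changes of the receptor and partner lists per comparison, and the 3 genes nearest to S100a8, S100a4 and S100a13. Ahnak and Mcam under DESeq2, Anxa2 in TAM, Xist, Ddx3y and the marker genes given singly were named after their values were seen. The members and lists were chosen with earlier results of these data known.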

Additional observations from a re-analysis of the deposited data

Results flagged for a closer look

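The genotype effects of S100a9 and S100a8 differed between the cell types. The effect in TAM minus that in MDSC was -1.06 (SE 0.106, edgeR, adjusted p = 0.000103) for S100a9 and -0.78 (SE 0.140, edgeR, adjusted p = 0.00322) for S100a8 on the log2 scale. In MDSC and in TAM alike, the lowest Shp2f/fLysMcre value of both genes exceeded the highest Shp2f/f value, so the effects differed in size and not in direction. In the alternatives run, leave-one-out included, the difference stayed between -1.23 and -0.95 for S100a9 and between -0.95 and -0.63 for S100a8, and passed in each.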

How the results depend on the processing

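Over the alternatives, S100a8 and S100a9 kept their direction in all 5 comparisons. In MDSC the count of called members, 2 of 8, was 0 with no filter, 0 at an adjusted p under 0.01 and 0 to 4 when each library was left out. The numbers of genes called in MDSC, 633 in all, were 1256 with DESeq2 (968 higher and 288 lower, against 556 and 77), 130 with no filter, 3 at an adjusted p under 0.01, 2666 in a single fit of all samples and 1 to 4406 with each library left out. With S100a10 as the added call, 3 members passed with DESeq2 (adjusted p = 0.0354) and in the single fit of all samples (edgeR, adjusted p = 0.0211). Deviations of same-numbered samples from their group means had a correlation of 0.399 in MDSC and of -0.197 to 0.0420 in TAM. With 2 libraries per group, both MDSC pairs must give the same value, so it is a single number. The numbers are not shown to pair samples. With the replicate block, 2674 genes and 3 members were called in MDSC, S100a10 at a log2 fold change of -0.55 (edgeR, adjusted p = 0.00424). In TAM the count of called members, 5, was 3 in the single fit of all samples, where 4837 genes were called against 7257, and 5 with each library left out. Under total-count scaling the signs turned for S100a6 (0.0021) and S100a13 (0.0221) in MDSC, for S100a1 (-0.0386), S100a11 (-0.0634) and S100a13 (-0.0166) in TAM, and for S100a13 (-0.0397) in the difference between effects. None of these passed. With libraries left out in turn, signs also turned in MDSC for S100a6 (-0.25 to 0.10), S100a13 (-0.25 to 0.13) and S100a1 (-0.012 to 0.33), in TAM for S100a1 (-0.071 to 0.15) and S100a11 (-0.033 to 0.10), and in the difference for S100a6 (-0.29 to 0.10), S100a13 (-0.051 to 0.37) and S100a1 (-0.27 to 0.11). S100a11 passed in the difference with DESeq2 (adjusted p = 0.0114) and with its size factors (edgeR, adjusted p = 0.0440), and the all-gene count of 4132 was 2220 at an adjusted p under 0.01 and 2446 to 7023 with libraries left out. Total-count scaling moved the median of all genes to -0.11 in TAM (2341 higher and 5225 lower, against 3452 and 3805), to -0.18 in the difference (1235 and 3122, against 2030 and 2102) and to -0.26 between cell types in Shp2f/fLysMcre (4300 and 7436, against 5354 and 6075). Between the cell types, calls of S100a1 and S100a10 were lost 17 times in Shp2f/f and 2 times in Shp2f/fLysMcre. The cause of these shifts was not tested. With 2 MDSC libraries per genotype, whether S100a10 was called in MDSC depended on the method, and the power to detect a change of its size was not tested.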
